A study of Mus musculus with 62 samples.

Results

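The genes described here are the 10 elastic fibre and microfibril genes Fbn1, Fbn2, Eln, Mfap2, Mfap4, Mfap5, Fbln1, Fbln2, Fbln5 and Emilin1. They were taken by symbol from a table of 47643 gene symbols measured in 62 libraries of mouse white adipose tissue. All 10 are in the table, and all 10 passed the minimum mean of 0.5 TPM that left 14577 symbols to test. TPM is a transcript level corrected for length, so levels of different genes can be set side by side. The libraries form 12 groups. In the CAC arm mice carried melanoma cells that bring on cachexia, the loss of fat and muscle seen in cancer. In the NCAC arm they carried melanoma cells without that effect, and in the Con arm they were mock injected. Tissue was taken 2, 4, 6 or 8 weeks later. There were 7 libraries in the CAC group at 8 weeks and 5 in each other group. The mice were female and 2 months old. The series record gives NCI athymic nude mice, while each sample is tagged C57BL6/J, and nothing used here settles which holds. The treatment tag reads cachectic melanoma cells for every sample, so arms follow the sample descriptions, and the labels also mention a time after LLC cells that no sample carries. Which fat depot was dissected is not given in the sources used here.

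Elastic fibres let a tissue stretch and recoil. They have a core of cross-linked elastin, deposited on a scaffold of microfibrils made mainly of fibrillins, with fibulins, emilins and microfibril-associated proteins joined to them. Microfibrils also hold latent transforming growth factor beta, and fibroblasts and smooth muscle cells are the main cells that secrete these proteins. In fat, this network lies around adipocytes and in the walls of blood vessels.

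At 8 weeks the gene for the main fibrillin fell in CAC tissue while those for fibulin-1 and fibulin-5 did not pass the test. The difference between these genes was not tested, nor was any link of their promoters to it. The RefSeq promoters of these 3 genes (GRCm38.p6, 250 bases before to 50 after the start) are shown side by side. They are Fbn1 at chr2:125506389-125506688 (minus strand), Fbln5 at chr12:101819070-101819369 (minus strand) and Fbln1 at chr15:85205699-85205998 (plus strand). Capitals mark GGGCGG (GC box) or AGAACA (half-site of the glucocorticoid receptor), either of them also as its reverse complement, CCGCCC or TGTTCT.
Fbn1: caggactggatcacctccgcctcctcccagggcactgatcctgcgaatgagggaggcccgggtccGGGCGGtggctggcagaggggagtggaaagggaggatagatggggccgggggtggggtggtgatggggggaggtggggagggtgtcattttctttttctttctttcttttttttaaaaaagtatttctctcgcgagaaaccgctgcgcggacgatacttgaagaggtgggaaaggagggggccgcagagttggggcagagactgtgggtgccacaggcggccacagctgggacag
Fbln5: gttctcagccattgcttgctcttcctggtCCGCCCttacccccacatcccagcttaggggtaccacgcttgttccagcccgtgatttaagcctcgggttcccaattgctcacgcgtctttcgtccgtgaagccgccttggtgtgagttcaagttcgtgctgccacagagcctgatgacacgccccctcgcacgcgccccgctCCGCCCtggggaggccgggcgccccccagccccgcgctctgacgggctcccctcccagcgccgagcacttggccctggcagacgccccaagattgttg
Fbln1: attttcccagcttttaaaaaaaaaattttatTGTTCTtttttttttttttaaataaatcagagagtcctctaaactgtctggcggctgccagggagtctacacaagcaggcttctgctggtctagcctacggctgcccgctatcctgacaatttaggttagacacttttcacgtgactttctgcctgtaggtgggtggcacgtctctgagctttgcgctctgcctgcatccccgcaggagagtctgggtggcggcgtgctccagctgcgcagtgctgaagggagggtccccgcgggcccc
The table of promoters holds 6 of the 10 genes, the 3 above with Mfap2, Emilin1 and Fbln2. Both strands were searched, over every start listed for a gene. GGGCGG was found for 5 of the 6 genes (all but Emilin1, and for Fbln1 at a start other than the one shown), as it was for 38.2% of the 27025 genes in that table at any of their starts. AGAACA was found for 3 of the 6 (Emilin1, Fbln1 and Mfap2), against 21.3% of genes. GGAATG, a motif of TEAD factors, was found for Mfap2 alone, against 16.6%, and TATAAA, the TATA box, for 0 of the 6, against 15.7%. Of the 6 genes, Fbln1, Fbln5 and Mfap2 have 2 starts each. These are matches of letters in short windows, and none of the 4 motifs holds another.

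Levels of the 10 genes varied widely between libraries of one group. Fbln1, which encodes a fibulin of elastic fibres and basement membranes, had the highest mean over the 62 libraries at 48.6 TPM. Fbn2, which encodes the fibrillin best known from development, had the lowest at 1.40 TPM. Fbn2 ran from 0.0294 to 14.0 TPM, a 478-fold span, and Mfap4 from 0.503 to 202 TPM, a 403-fold span, whereas Fbln5 ran from 7.80 to 48.3 TPM, a 6.18-fold span. The order of the 12 group means put CAC at 6 weeks lowest for Fbn1, Fbn2, Mfap2, Mfap4, Mfap5, Fbln1, Fbln2 and Fbln5. The exceptions were Eln, lowest in CAC at 8 weeks, and Emilin1, lowest in Con at 4 weeks. For each of the 10 genes, 0 of the 11 pairs of neighbours in that order differed by more than the larger of their SDs.

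Over all genes, between 11783 and 14470 reached 1 TPM in a library, and mitochondrially encoded genes took 17.2% to 44.4% of a library's TPM. The read depth is unknown. Adipocyte markers were above 0 in every group, with summed levels of the 8 genes from 31494 to 89531 TPM. Urothelial markers (5 genes) summed to between 1.92 and 502 TPM, over 100 TPM in 16 of the 62 libraries, 3 of them in CAC and 1 in Con at 8 weeks. Smooth muscle and pericyte markers (8 genes) also set some libraries apart, with the highest sum, 17727 TPM, in Con replicate 2 at 8 weeks. The labels call the replicates biological, and p-values measure the spread between these libraries.

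In CAC tissue at 8 weeks, 3 of the 10 genes fell relative to Con tissue: Fbn1, Mfap5 and Mfap4 (limma on log2(TPM + 1), Benjamini-Hochberg adjusted p under 0.05 over 14577 genes). Over all genes tested, 1.99% fell and 1.08% rose. Values on this log scale understate the change of genes with low levels. The median log2 change of the 10 genes was -1.14, against -0.08 over all genes, and all 10 values were negative. Under other settings Fbln1 turned positive in 5 of 21, median-ratio rescaling and both marker covariates among them, and Mfap2, Fbln5 and Emilin1 with the fibroblast covariate. At an unadjusted p under 0.05 there were 8 of the 10 genes, against 20.6% of all genes. Without Con replicate 2, the highest Con library for all 10 genes, the median was -0.80 against 0.01 over all genes, 5 of the 10 were at an unadjusted p under 0.05, against 16.3% of genes, and Fbn1 alone was called, with 0.954% of genes called lower. In whole tissue, fewer cells of a type and less RNA per cell cannot be told apart. Over all genes the test called 158 higher and 290 lower in CAC tissue, with 250 and 1811 when mitochondrially encoded genes were left out and 650 and 829 with median-ratio rescaling.

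**Figure D1:**
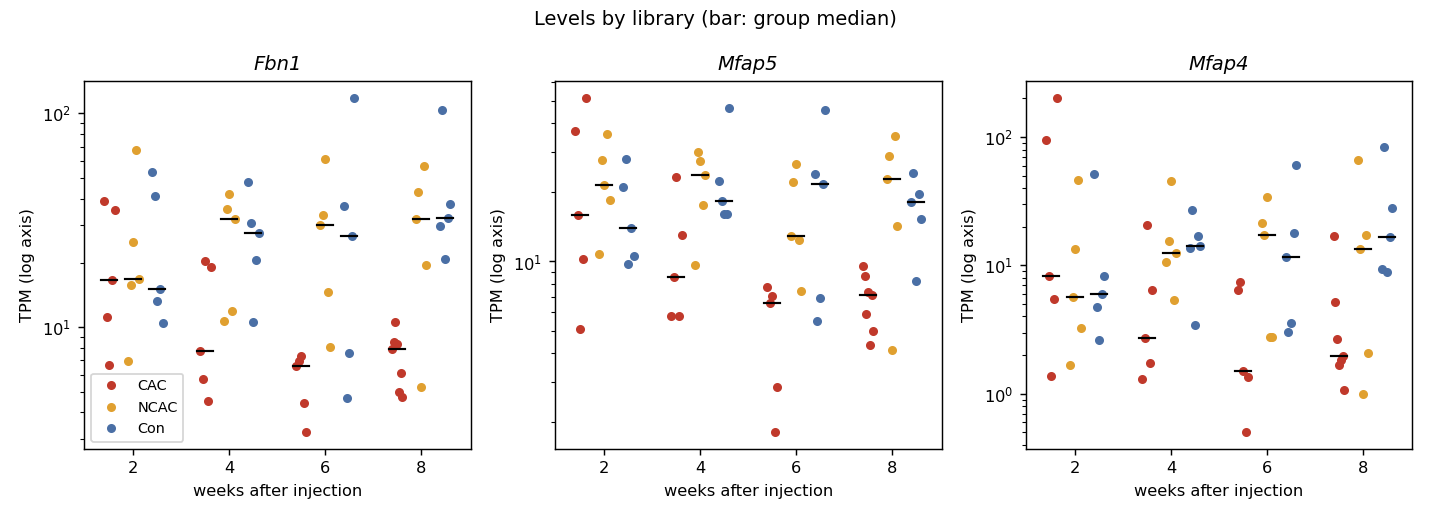
Level of Fbn1, Mfap5 and Mfap4 in each of the 62 libraries, in TPM on a log axis, against weeks after injection, with 1 point per library and a bar at the group median. At 8 weeks the 7 CAC libraries lie between 4.73 and 10.6 TPM for Fbn1, below the lowest Con library at 20.9 TPM.

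Fbn1 encodes fibrillin-1, the main protein of microfibrils, whose mutations cause Marfan syndrome in people (chr2:125300594-125507993, minus strand, GRCm38). At 8 weeks it ranged from 4.73 to 10.6 TPM with a median of 7.93 TPM in the 7 CAC libraries. In the 5 Con libraries it was at 29.9, 104, 20.9, 32.3 and 37.7 TPM. All 7 CAC libraries lay below every Con library, as was so for 2.22% of genes, and the Con library at 104 TPM stood above the other Con libraries. Fbn1 averaged 7.31 ± 2.13 TPM in CAC tissue (SD, n = 7) and 45.0 ± 33.6 TPM in Con tissue (n = 5). On the log2 scale this was -2.28 (SE 0.33) with a limma adjusted p of 0.00623. Without that Con library, replicate 2, the change was -1.92 (limma adjusted p = 0.00346). The call held on leaving out each of the 12 libraries in turn, with a limma adjusted p of 0.0202 at most. It was lost when the 4 libraries rich in urothelial markers were left out, although the change was then -2.21 (limma adjusted p = 0.165). That setting left 1 gene called higher and 1 lower over the whole table. Those are CAC replicates 5, 6 and 7 and Con replicate 3.

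Mfap5 encodes a small glycoprotein of microfibrils, also called MAGP-2 (chr6:122505845-122529290, plus strand). At 8 weeks it ranged from 4.35 to 9.56 TPM with a median of 7.17 TPM in CAC libraries, against 18.1, 24.1, 8.23, 19.6 and 15.3 TPM in Con libraries. The groups overlapped through 1 Con library at 8.23 TPM, and 5 of 7 CAC libraries lay below it. The log2 difference was -1.17 (SE 0.25, limma adjusted p = 0.0268). This call was lost without any one of CAC replicates 4, 5, 6 and 7 or Con replicates 1, 2, 4 and 5, with a limma adjusted p of up to 0.0630. Without Con replicate 2 the difference was -1.03.

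Mfap4 encodes a fibrinogen-related protein that binds elastin and collagen (chr11:61485431-61488900, plus strand). At 8 weeks it ranged from 1.06 to 16.9 TPM with a median of 1.98 TPM in CAC libraries, against 9.42, 83.3, 8.83, 16.7 and 27.8 TPM in Con libraries. The CAC library at 16.9 TPM, replicate 1, lay within the Con range, and the other 6 lay below every Con library. The log2 difference was -2.38 (SE 0.59, limma adjusted p = 0.0466). Leaving out CAC replicate 2, 3, 4, 5, 6 or 7, or Con replicate 2, 4 or 5, took the limma adjusted p past 0.05, to 0.104 at most. Without Con replicate 2 the difference was -1.89 (limma adjusted p = 0.0976).

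The other 7 genes did not pass the test at 8 weeks. Fbn2 (chr18:58008623-58210487, minus strand) ranged from 0.160 to 1.15 TPM in CAC libraries, against 0.238, 14.0, 3.74, 2.07 and 3.70 TPM in Con libraries. All Con libraries but replicate 1 lay above every CAC library, and the log2 difference was -1.47 (SE 0.46, limma adjusted p = 0.0965). Fbln2, a fibulin that binds fibrillin and fibronectin (chr6:91212455-91272540, plus strand), was at 14.7 to 50.1 TPM in CAC libraries, against 54.1, 101, 27.1, 58.7 and 46.9 TPM in Con libraries. In 5 of 7 CAC libraries it lay below every Con library, at a log2 difference of -1.13 (SE 0.32, limma adjusted p = 0.0771). With mitochondrially encoded genes left out, Fbn2 and Fbln2 were also called lower, at -1.72 and -1.25 (limma adjusted p = 0.0424 and 0.0200), as were 11.9% of all genes.

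Eln encodes elastin itself, the rubber-like core of the fibre (chr5:134702593-134747323, minus strand). It ranged from 11.7 to 46.6 TPM with a median of 22.4 TPM in CAC libraries at 8 weeks, against 53.4, 145, 31.6, 28.6 and 38.7 TPM in Con libraries. Of the 7 CAC libraries 5 lay below every Con library and 2 within the Con range, at a log2 difference of -1.09 (SE 0.42, limma adjusted p = 0.158). Mfap2, another small microfibril glycoprotein (MAGP-1, chr4:141010418-141015984, plus strand), ranged from 9.50 to 23.1 TPM in CAC libraries, against 16.1, 125, 11.7, 28.2 and 40.4 TPM in Con libraries. Emilin1, a glycoprotein at the border of elastin and microfibrils (chr5:30913402-30921277, plus strand), ranged from 13.0 to 30.2 TPM in CAC libraries, against 15.6, 147, 32.1, 17.5 and 50.3 TPM in Con libraries. For both genes the groups overlapped. The log2 difference was -1.14 (SE 0.47, limma adjusted p = 0.184) for Mfap2 and -0.99 (SE 0.46, limma adjusted p = 0.243) for Emilin1. Without Con replicate 2 the differences were -0.70 for Eln, -0.65 for Mfap2, -0.50 for Emilin1, -1.01 for Fbn2 and -0.90 for Fbln2, with limma adjusted p from 0.169 to 0.496.

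Fbln5 encodes the fibulin that tethers elastin to cells and to microfibrils (chr12:101746565-101819055, minus strand). It ranged from 11.6 to 36.3 TPM in CAC libraries at 8 weeks, against 23.8, 43.7, 13.7, 23.6 and 20.3 TPM in Con libraries. The ranges overlapped, and the log2 difference was -0.35 (SE 0.29, limma adjusted p = 0.565). Fbln1 (chr15:85205949-85286535, plus strand) ranged from 29.1 to 56.0 TPM with a median of 42.6 TPM in CAC libraries, against 26.3, 92.8, 29.6, 61.9 and 39.8 TPM in Con libraries. Every CAC library lay inside the Con range, at a log2 difference of -0.09 (SE 0.29, limma adjusted p = 0.913). The sign of the Fbln1 value changed with the setting, and it was 0.17 without Con replicate 2 and 0.023 without Con replicate 4.

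**Figure D2:**
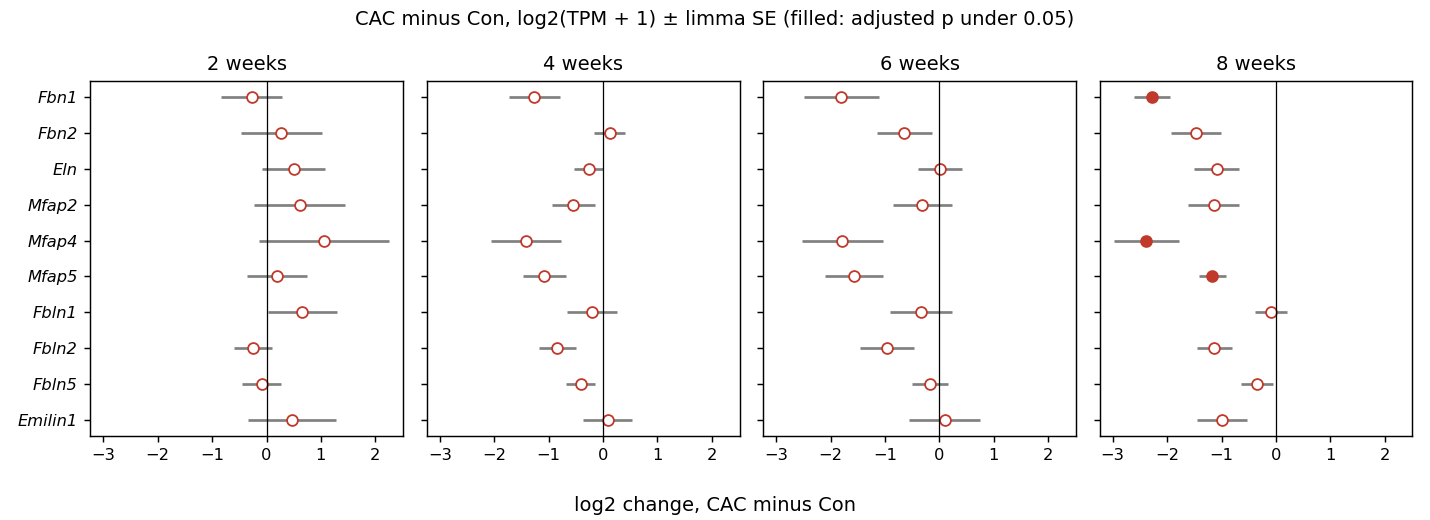
Log2 change of each of the 10 genes in CAC minus Con tissue (x axis, log2(TPM + 1) scale) at 2, 4, 6 and 8 weeks, with bars of 1 limma SE and filled points where the limma adjusted p was under 0.05. The 3 filled points are Fbn1, Mfap4 and Mfap5 at 8 weeks, and Fbln1 and Fbln5 lie nearest 0 there, at -0.09 and -0.35.

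Against NCAC tissue at 6 weeks, Fbn1 fell in CAC tissue, 1 of the 10 genes, while 0.844% of all genes were called lower and 4.94% higher. It was at 6.60, 6.92, 7.37, 4.44 and 3.24 TPM in CAC libraries, against 30.2, 33.5, 61.0, 14.7 and 8.06 TPM in NCAC libraries. All 5 CAC libraries lay below every NCAC library, as was so for 1.14% of genes. The log2 difference was -1.93 (SE 0.46, limma adjusted p = 0.0367). The call was lost without any one of CAC replicates 1, 2, 4 and 5 or NCAC replicates 1, 2 and 4, with a limma adjusted p of up to 0.101. Over all genes 720 were higher and 123 lower in CAC tissue. The split was 331 and 335 without mitochondrially encoded genes and 530 and 469 with median-ratio rescaling, settings that moved the median of all genes by -0.15 and -0.14. Under them Fbn1 was at -2.16 and -2.08 (limma adjusted p = 0.0256 and 0.0145).

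Mfap5 was at 7.73, 6.62, 7.11, 1.81 and 2.85 TPM in CAC libraries at 6 weeks, against 12.9, 22.2, 26.5, 12.4 and 7.47 TPM in NCAC libraries. Only CAC replicate 1 reached into the NCAC range, and the log2 difference was -1.48 (SE 0.39, limma adjusted p = 0.0533). Mfap4 was at 6.38, 7.49, 1.50, 0.503 and 1.36 TPM in CAC libraries, against 21.6, 17.4, 34.4, 2.77 and 2.79 TPM in NCAC libraries. CAC replicates 3, 4 and 5 lay below every NCAC library and replicates 1 and 2 within their range, at a log2 difference of -1.71 (SE 0.74, limma adjusted p = 0.177). For Emilin1 and Fbln5 the changes were 0.00 (SE 0.47) and 0.01 (SE 0.24), with limma adjusted p = 0.999 and 0.977. The median of the 10 genes was -0.57, against 0.13 over all genes, and 3 had an unadjusted p under 0.05, against 26.2% of genes.

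At 8 weeks 0 of the 10 genes were called lower in CAC than in NCAC tissue by limma, with 0.185% of all genes called lower. An unadjusted p under 0.05 was reached by 3 of the 10, against 16.1% of genes. Fbn1 was at 4.73 to 10.6 TPM in CAC libraries, against 32.0, 42.7, 5.24, 56.6 and 19.5 TPM in NCAC libraries. NCAC replicate 3, at 5.24 TPM, lay among the CAC libraries, and the other 4 NCAC libraries lay above all of them. The log2 difference was -1.65 (SE 0.44, limma adjusted p = 0.0947). NCAC replicate 3 had the lowest level of the 62 libraries for Fbln5 and Emilin1. Without it Fbn1 was at -2.16, Mfap5 at -1.71 and Fbln2 at -1.18 (limma adjusted p = 0.00224, 0.00393 and 0.0328). Of all genes 6.34% were then called lower. This library was also the lowest of the NCAC libraries at 8 weeks for these 3 genes, so leaving it out had to widen their differences. Leaving out each library in turn gave 0 to 3 calls among the 10.

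Against Con tissue at 6 weeks limma called 0 of the 10 genes in CAC tissue, with 0.048% of all genes called lower and 0.309% higher, and 3 of the 10 had an unadjusted p under 0.05, against 9.45% of genes. Fbn1 was at 6.60, 6.92, 7.37, 4.44 and 3.24 TPM in CAC libraries, against 37.01, 4.67, 7.60, 26.6 and 118 TPM in Con libraries. Con replicates 2 and 3 lay at or near the CAC levels and Con replicate 5 far above them. The log2 difference was -1.81 (SE 0.69, limma adjusted p = 0.416), and it was -1.21 without Con replicate 5 (limma adjusted p = 0.352).

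At 4 weeks limma called 0 of the 10 genes in CAC against Con and in CAC against NCAC tissue, with 0% of all genes lower in either and 0.00686% higher than in Con tissue. In each, 3 of the 10 genes had an unadjusted p under 0.05, against 2.78% and 4.45% of genes. Fbn1 was at 7.76, 5.73, 20.4, 4.52 and 19.0 TPM in CAC libraries, against 10.7, 35.8, 41.9, 11.9 and 31.9 TPM in NCAC libraries and 47.8, 30.8, 10.6, 20.6 and 27.5 TPM in Con libraries. Of the 5 CAC libraries 3 lay below every NCAC and every Con library. None of the 10 genes was lower in every CAC than in every Con library at 4 or 6 weeks, as 0.233% and 0.816% of genes were. The changes were -1.16 (SE 0.49) against NCAC and -1.26 (SE 0.46) against Con, with limma adjusted p = 0.981 for the first and 0.99998 for the second. These comparisons share the CAC libraries.

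At 2 weeks limma called 0 of the 10 genes in CAC against Con or NCAC tissue, with 0% of all genes lower, 0.00686% higher than in Con tissue, and 0 of the 10 at an unadjusted p under 0.05, against 3.45% and 3.62% of genes. Mfap4 was at 94.5, 8.24, 1.36, 5.47 and 202 TPM in CAC libraries, against 1.67, 5.72, 13.4, 46.7 and 3.25 TPM in NCAC libraries and 51.7, 4.76, 2.62, 5.97 and 8.27 TPM in Con libraries. The levels in CAC replicates 1 and 5 were the highest of the 62 libraries for this gene. Both libraries also had the highest summed smooth muscle and pericyte markers of their group, at 8176 and 8031 TPM. The part of those cells in the Mfap4 levels was not tested. Between NCAC and Con tissue 0 of the 10 genes were called by limma at 2, 4, 6 or 8 weeks, with 0% of all genes lower or higher and 0 of the 10 at an unadjusted p under 0.05, against 1.61%, 0.789%, 1.41% and 1.24% of genes. The median change of the 10 was 0.04, -0.01, -0.08 and -0.51 at those weeks, against -0.01, -0.01, -0.16 and -0.05 over all genes.

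The difference between the CAC effects at 8 and at 2 weeks was tested directly. All 10 genes had negative values (Fbln1, Fbln5 and Emilin1 turned positive with either marker covariate), with a median of -1.52 against -0.18 over all genes, and limma called 0 of the 10, with 0.0206% of genes called lower and 0.0343% higher. An unadjusted p under 0.05 was reached by 4, against 9.34% of genes. For Fbn1 the difference was -2.01 (SE 0.66, limma adjusted p = 0.400), and for Mfap4 -3.44 (SE 1.35, limma adjusted p = 0.496). Within the CAC arm, Fbn1 was at 4.73 to 10.6 TPM at 8 weeks, against 39.0, 11.2, 6.66, 16.6 and 35.4 TPM at 2 weeks, a change of -1.23 (SE 0.38, limma adjusted p = 0.144). In the CAC arm 0 of the 10 genes were called lower at 8 than at 2 weeks, with 0.192% of all genes, and 3 had an unadjusted p under 0.05, against 15.1% of genes. Without CAC replicate 3 of 2 weeks the count was 2, with 0.631% of genes. This library was the lowest of its group for all 10 genes, so leaving it out had to lower each of their values. In Con tissue the 10 values at 8 minus 2 weeks were all positive, with a median of 0.76, against 0.16 over all genes. Limma called 0, with 0% of genes, and 0 of the 10 were at an unadjusted p under 0.05, against 3.87%. Mfap5 turned negative in 6 of 19 other settings, median-ratio rescaling among them. With the fibroblast covariate Mfap5, Fbln5 and Fbln1 were at -0.24, -0.08 and -0.04, and with the smooth muscle covariate 7 genes turned negative. The first of these tests uses the Con libraries of both weeks.

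The genes for fibulin-1 and fibrillin-1 were compared within each library, a measure chosen after their values were seen and given with no test. At 8 weeks the ratio of Fbln1 to Fbn1 TPM ran from 2.75 to 7.53 with a median of 6.55 in CAC libraries, against 0.654 to 3.52 with a median of 1.78 in NCAC libraries and 0.879 to 1.91 with a median of 1.06 in Con libraries. At 6 weeks it ran from 3.95 to 8.17 with a median of 6.48 in CAC libraries, against 0.810 to 3.02 (median 1.51) in NCAC libraries and 1.18 to 3.80 (median 1.91) in Con libraries. CAC libraries lay above every Con library at both weeks, and above every NCAC library at 6 weeks. At 4 weeks the CAC range was 3.19 to 6.85, above the NCAC range of 0.974 to 2.80 and overlapping the Con range of 1.02 to 3.48. A ratio alone does not show which of the genes differs. In the fits against Con at 8 weeks Fbn1 was at -2.28 (called lower) and Fbln1 at -0.09 (not called). Against NCAC at 6 weeks they were at -1.93 (called lower) and -0.17 (not called). The higher ratio thus restates the lower Fbn1 in these comparisons and is no separate result for Fbln1.

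**Figure D3:**
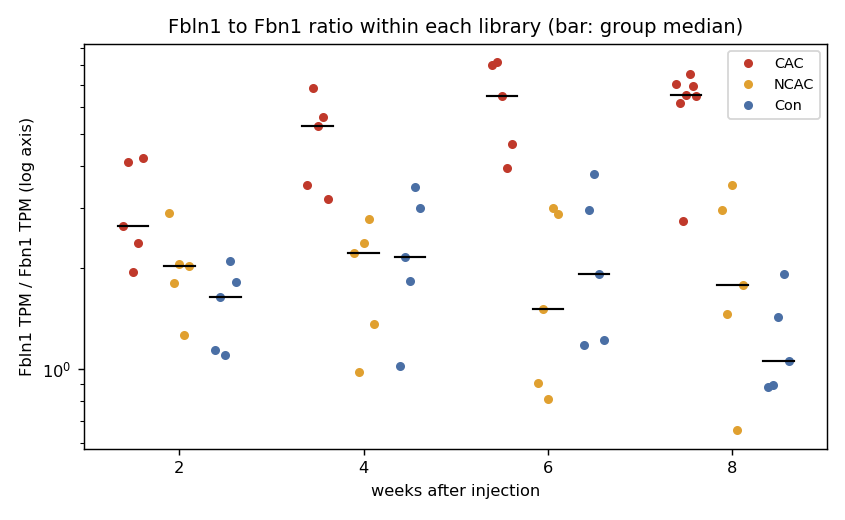
Ratio of Fbln1 to Fbn1 TPM within each of the 62 libraries (log axis) against weeks after injection, by arm, with a bar at each group median. At 8 weeks the CAC median is 6.55, above the NCAC median of 1.78 and the Con median of 1.06.

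The share of all genes with such a ratio differed between comparisons. Of 13910 genes above 0 in all libraries, the ratio to Fbn1 was higher in every CAC library than in every Con library for 83.3% at 8 weeks and 19.1% at 6 weeks, and than in every NCAC library for 74.7% at 6 weeks and 1.05% at 8 weeks. It was so for 2 of the other 9 elastic fibre genes against Con at 8 weeks (Fbln1 and Fbln5), and for 5 against Con (Eln, Mfap2, Fbln1, Fbln5 and Emilin1) and 6 against NCAC (these with Fbln2) at 6 weeks. At 4 weeks it was so against NCAC for Fbln1 alone, with 1.71% of genes, and against Con for Emilin1 alone, with 2.17% of genes.

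Markers of several cell types varied with these genes, those of fibroblasts and smooth muscle cells among them. At 8 weeks the 10 fibroblast and adipocyte progenitor markers, none of them at 0, summed to 1143 to 2876 TPM (median 1965) in CAC libraries, against 1459 to 6571 TPM (median 2968) in Con libraries. Of these 10 markers, 3 fell in CAC tissue (Lum, Dpt and Serpinf1). The other markers of the list were not called, and their log2 changes ran from -0.97 to 0.34. With the mean of all 10 markers as a covariate, Fbn1 was at -1.36 (SE 0.26, limma adjusted p = 0.0672), Mfap5 at -0.51 and Mfap4 at -0.65 (limma adjusted p = 0.202 and 0.373), and 0 of the 10 elastic fibre genes were called. Under this setting limma called 0 of the 14577 genes lower and 20 higher, 3 of the 10 were at an unadjusted p under 0.05, against 22.1% of genes, and the median of all genes moved by 0.33. At 6 weeks the same markers summed to 822 to 2401 TPM in CAC libraries and 1190.3 to 3173 TPM in NCAC libraries. There, with the covariate, Fbn1 was at -1.11 (limma adjusted p = 0.0122) and Mfap5 at -0.80 (limma adjusted p = 0.0387), both called lower, as were 0.926% of all genes, with 15.9% called higher.

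The 8 smooth muscle and pericyte markers, none of them at 0, summed to 495 to 2567 TPM (median 1071) in CAC libraries at 8 weeks, against 829.7 to 17727 TPM (median 4325) in Con libraries. All 8 had negative changes, with a median of -1.76, and 0 of the 8 passed the test. With their mean as a covariate, a setting added after the data were seen, Fbn1 was at -1.83 (SE 0.35, limma adjusted p = 0.0481), 1 of the 10 genes called lower, with 0.268% of all genes, and the median of all genes moved by 0.13. Under it Fbn2 was at -0.41 (SE 0.29) and Emilin1 at -0.02 (SE 0.35), with limma adjusted p = 0.587 and 0.985. Against NCAC tissue at 8 weeks the same covariate put Fbn1 at -1.78 (SE 0.39, limma adjusted p = 0.0424), with 1.55% of genes called lower. Urothelial markers summed to 7.68 to 182 TPM in CAC and 9.66 to 109 TPM in Con libraries at 8 weeks, and to 5.46 to 502 TPM in CAC and 6.77 to 36.0 TPM in NCAC libraries at 6 weeks, where 3 of the 5 rose in CAC tissue. With the libraries over 100 TPM left out, Mfap5 and Mfap4 at 8 weeks were at -1.20 and -2.17 against Con (limma adjusted p = 0.183 and 0.355). Fbn1 at 6 weeks was at -1.88 against NCAC (limma adjusted p = 0.429), with 2 CAC libraries remaining.

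Across the 62 libraries the 10 genes varied together, with Pearson's r of log2(TPM + 1) between 0.44 and 0.89 over the 45 pairs. Libraries share their dissection, RNA and scaling, so these values describe them and carry no test. The highest were Fbn2 with Emilin1, Mfap2 with Mfap4 and Mfap2 with Emilin1, each at 0.89, and Fbn1 with Mfap5 and with Fbln2 at 0.88, while Fbn2 with Mfap5 was the lowest. With the mean of the smooth muscle and pericyte markers r was 0.89 for Fbn2, 0.88 for Emilin1 and 0.76 for Mfap2, against 0.48 for Fbn1, 0.36 for Mfap5 and 0.34 for Fbln2. With that of the fibroblast markers r ran from 0.69 for Fbn2 to 0.91 for Mfap2, with Fbn1 at 0.90. High values were not limited to these lists. For mesothelial markers r ran from 0.53 for Fbn2 to 0.85 for Fbln1, with Fbn1 at 0.78. For macrophage markers it ran from 0.37 for Fbn2 to 0.84 for Fbln5, and for adipocyte markers from -0.75 for Fbn2 to -0.12 for Fbln2. B cell, urothelial and skeletal muscle markers gave values from -0.29 to 0.31.

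**Figure D4:**
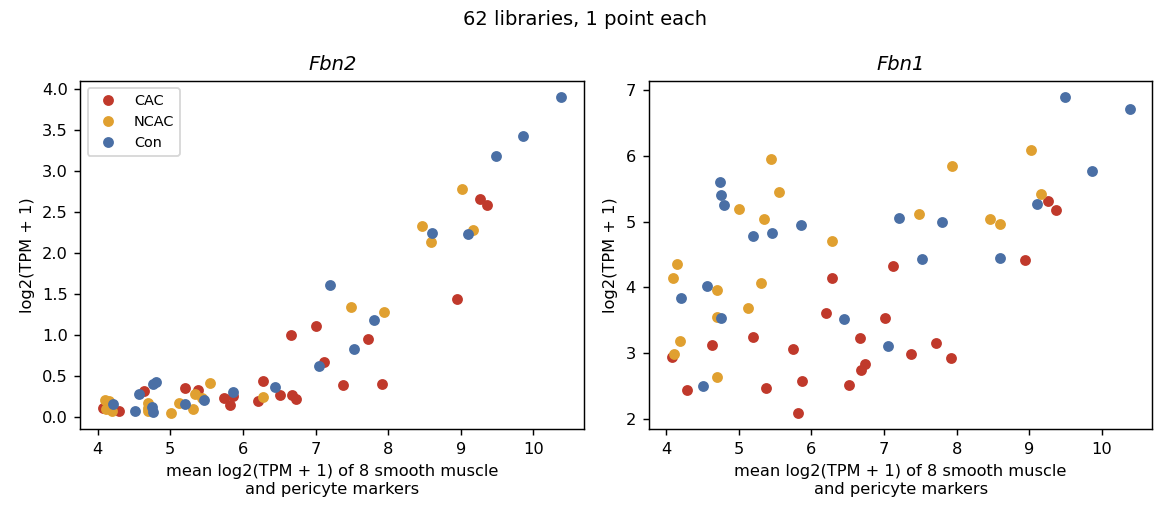
Log2(TPM + 1) of Fbn2 and of Fbn1 in the 62 libraries against the mean log2(TPM + 1) of 8 smooth muscle and pericyte markers, with 1 point per library coloured by arm. Fbn2 stays near 0 in most libraries and is high in those with the highest markers (r = 0.89). Fbn1 is spread at low and middle marker levels (r = 0.48) and is not low where the markers are highest. For deviations from the group means, r is 0.90 for Fbn2 and 0.62 for Fbn1.

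The 5 genes outside the set whose levels were most like those of Fbn1 over the 62 libraries were Fstl1 (r = 0.960), Col5a1 (0.959), Loxl2 (0.957), Col5a2 (0.953) and Cercam (0.951). Among them, Col5a1 and Col5a2 encode chains of type V collagen, and Loxl2 a lysyl oxidase-like enzyme. For Eln they were Cap1 (0.884), Synpo (0.881), Gja5 (0.878), Clic1 (0.877) and Atp8b2 (0.872). Gja5 encodes a connexin of arterial endothelium. Those nearest to Fbn2, a gene added to this count after its values were seen, were Mmp17 (0.968), Reep2 (0.962), Slitrk3 (0.961), B3gnt5 (0.960) and Ryr3 (0.960).

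Other genes of the pathway were set beside these at 8 weeks in CAC against Con tissue. Of the 5 lysyl oxidases, which cross-link elastin and collagen, 2 fell, Loxl2 by 2.64 (SE 0.37) and Loxl1 by 1.76 (SE 0.32) on the log2 scale (limma adjusted p = 0.00604 and 0.0165). The median of the 5 was -1.71, and Lox itself was at -1.71 (SE 0.62, limma adjusted p = 0.138). Of 6 latent TGF-beta binding proteins and ligands tested, Tgfb3, a TGF-beta ligand, fell by 0.92 (SE 0.21, limma adjusted p = 0.0368). Of 14 other fibulins, emilins and associated proteins tested, 3 fell and 11 did not pass, with a median of -0.73. The 3 were Fn1, which encodes fibronectin, at -2.28 (SE 0.38), Npnt, a ligand of integrin alpha-8, at -1.88 (SE 0.47), and Emilin2 at -1.51 (SE 0.28), with limma adjusted p = 0.0126, 0.0494 and 0.0183.

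Of 14 elastases and inhibitors, 0 were called by limma, with a median of -0.52, and of 10 matrix receptors tested, 0 were called, with a median of -0.69. Of 13 collagen chains set beside them, 11 fell, with a median of -2.61. The largest falls among those chains were Col6a3 at -3.18 (SE 0.60), Col1a1, a chain of type I collagen, at -3.15 (SE 0.62), Col6a2 at -2.97 (SE 0.56) and Col3a1 at -2.81 (SE 0.49). Without Con replicate 2, 10 of the 13 collagen chains, Loxl1, Loxl2, Fn1 and Emilin2 were called lower, and Tgfb3, Npnt and Col14a1 were not. With urothelial-rich libraries left out or with the fibroblast covariate, 0 genes of the 6 pathway lists were called by limma, and with the smooth muscle covariate Loxl2 alone, and the collagen medians were then -2.24, -1.32 and -1.76. The median over the 10 elastic fibre genes, -1.14, lay between those of the receptors and the collagens, and the difference between these lists was not tested. Against NCAC tissue, 0 genes of the 6 pathway lists were called by limma at 8 weeks. At 6 weeks Loxl2 fell by 1.67 (SE 0.39), 4 of the 13 collagen chains fell, and Mmrn2, an endothelial multimerin, rose by 0.80 (SE 0.17), with limma adjusted p = 0.0365 for Loxl2 and 0.0255 for Mmrn2. In that comparison 3 of the 7 endothelial markers rose (Vwf, Emcn and Tie1), with a median of 0.59, and their sum ran from 317 to 458 TPM in CAC libraries, against 252 to 413 TPM in NCAC libraries. The 6 mesothelial markers, 0 of them called by limma, had a median of -1.03, with sums of 27.9 to 199 TPM in CAC libraries, against 76.5 to 313 TPM in NCAC libraries. Of the 5 skeletal muscle markers 1 rose (Myh4), with a median of 2.67 over the 5, and their sum ran from 31.0 to 713 TPM in CAC libraries, against 6.43 to 108 TPM in NCAC libraries. None of these markers was at 0, and the part of these cells in the results at 6 weeks was not tested.

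**Figure D5:**
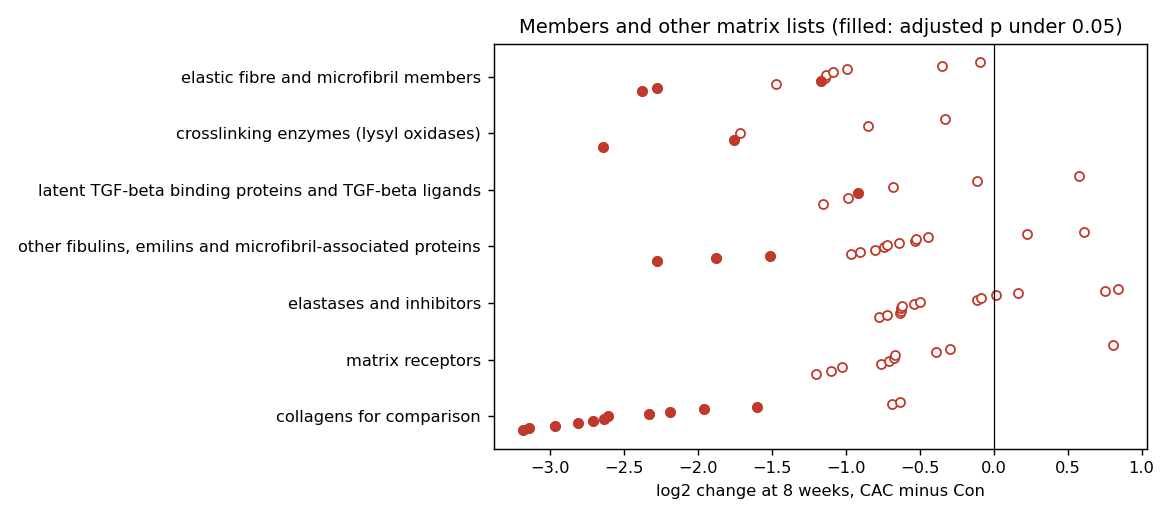
Log2 change at 8 weeks in CAC minus Con tissue (x axis, log2(TPM + 1) scale) for each gene of the elastic fibre set and of 6 other matrix lists, with filled points where the limma adjusted p was under 0.05. Filled points number 3 of 10 in the elastic fibre set and 11 of 13 among the collagens, all of them below 0.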

How the data were processed

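RNA was extracted with Trizol, prepared with a stranded TruSeq mRNA kit for an Illumina NovaSeq, per the labels' protocols. The genome build was mm10, per the submitters' processing notes. An aligner, counter or annotation release is not given in the sources used here. Deposited values are TPM, in which each library sums to 1e+06. Read depth cannot be had from TPM, so no counting interval is given. Coordinates come from GENCODE M21 (GRCm38) and promoters from RefSeq.

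Values were transformed to log2(TPM + 1). Testing was limited to the 14577 symbols whose mean over the 62 libraries reached 0.5 TPM, and a few without variation dropped out of single comparisons. Each of 15 comparisons used limma 3.58.1 (R 4.3.3; lmFit, then eBayes with trend and robust prior) on the libraries of its own groups. P-values were two-sided, adjusted over all genes by Benjamini-Hochberg, and called under 0.05. The fits were tried on data simulated with independent noise for each gene. For CAC against Con at 8 weeks, 66 of 100 genes changed by 1 and 92 of 100 changed by 2 on the log2 scale were called. There were 4 false calls. Variation shared between genes, which these libraries have, was not simulated, so the fits were not tried under it. Alternatives were a pseudocount of 0.1, no filter, 2 other scalings, all 62 libraries in 1 fit, the replicate number as a block, libraries over 100 TPM of urothelial markers left out, a fibroblast marker covariate, each library left out in turn and, added after the data were seen, a smooth muscle marker covariate.

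The 10 genes, 6 pathway lists and 11 marker lists were chosen with earlier results of these data known. Of 135 listed genes 134 are in the table, and Ltbp4 was not analysed here. Named were all 10 genes, for each pathway list up to 4 called genes with the largest changes, Col1a1, and the 5 genes most like Fbn1 and Eln. Other genes (Lox, Lum, Dpt, Serpinf1, Cfd, Msln, Col14a1, the genes named at 6 weeks and those most like Fbn2) were named after their values were seen. Marker lists other than the fibroblast, smooth muscle and urothelial lists gave these medians at 8 weeks in CAC minus Con tissue: 0.21 for adipocyte (Cfd rose), 0.13 for endothelial, -0.97 for mesothelial (Msln fell), -0.14 for macrophage, -0.41 for B cell, -0.19 for mammary, -0.07 for skeletal muscle and -0.35 for cartilage and tendon markers. Changes of the urothelial markers ran from 0.03 for Upk1b to 1.96 for Upk3a, with none called by limma.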

Additional observations from a re-analysis of the deposited data

Results flagged for a closer look

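In 4 of the 120 sets of 1 gene in 1 group, 1 library lay far from the others of its group, all 4 for Fbn2. Chance flags about 1 in 20 such sets. Fbn2 was at 5.87 TPM in NCAC replicate 4 at 2 weeks, with the other NCAC libraries at 0.0682 to 0.180 TPM. It was at 9.82 TPM in Con replicate 1 at 2 weeks, with the others at 0.118 to 0.317 TPM. At 4 weeks it was at 3.86 TPM in NCAC replicate 3, with the others at 0.0294 to 0.212 TPM. At 6 weeks it was at 8.10 TPM in Con replicate 5, with the others at 0.0536 to 0.542 TPM. Each of these libraries also had the highest summed smooth muscle and pericyte markers of its group, at 6358, 11466, 7138 and 8936 TPM. The part of those cells in the Fbn2 levels was not tested.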

How the results depend on the processing

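The count of called genes moved in 4 of 15 comparisons. For CAC against Con at 8 weeks it was 3, and became 5 without mitochondrially encoded genes, 2 with no filter on low values, 1 with all 62 libraries in 1 fit or the smooth muscle covariate, 0 with urothelial-rich libraries left out or the fibroblast covariate, and 1 to 4 on leaving out 1 library. Over all genes 290 were called lower, and 1811, 145, 450, 39, 1 and 0 under those settings in turn. On leaving out 1 library 79 to 428 were. For CAC against NCAC at 6 weeks the count of the 10 was 1, and became 0 with no filter, with all 62 libraries in 1 fit or with urothelial-rich libraries left out, 2 with either other scaling or covariate, and 0 to 2 on leaving out 1 library. Over all genes 123 were called lower, and 79, 64 and 5 under the first settings named. The number was 335 without mitochondrially encoded genes, 469 with median-ratio rescaling, 135 with the fibroblast and 194 with the smooth muscle covariate. On leaving out 1 library 24 to 215 were called lower. For CAC against NCAC at 8 weeks the count of the 10 was 0, 1 with the smooth muscle covariate, and 0 to 3 on leaving out 1 library. For CAC at 8 against 2 weeks it was 0, 2 with median-ratio rescaling or the smooth muscle covariate, 1 with the fibroblast covariate, and 0 to 2 on leaving out 1 library. In the reported fits of the last 2 comparisons, 27 and 28 of 14577 genes were called lower. The causes were not tested. The changes of sign at 8 weeks in CAC minus Con tissue were Mfap2 at 0.41, Fbln1 at 0.81, Fbln5 at 0.46 and Emilin1 at 0.18 with the fibroblast covariate, and Fbln1 at 0.013 with median-ratio rescaling and 0.24 with the smooth muscle covariate. On leaving out 1 library Fbln1 ran from -0.28 to 0.17, and was above 0 without Con replicate 2 (0.17) or 4 (0.023).

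Replicate numbers showed no regular pairing of the samples. Correlations of deviations between same-numbered libraries ran from -0.65 to 0.57 and were all over 0.1 in 0 of 12 comparisons. A library was counted again in each comparison that used it, which gave 120 counts. In 27 of them it correlated best with its own number among the 5 libraries compared from the other group. The most was 6 of 10 for CAC against NCAC at 8 weeks (median r 0.24). Such a check cannot exclude a pairing. With the replicate number as a block, 0 of the 10 genes were called for CAC against Con at 8 weeks. Fbn1 was then at -2.14 (limma adjusted p = 0.0932). Over all genes that setting called 7 lower and 23 higher of 14577. For CAC against NCAC at 6 weeks it called 3 of the 10, with 221 genes lower and 594 higher of 14576. In the other comparisons 0 of the 10 were called.

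Of the 21 settings other than the one reported, Fbn1 was called at 8 weeks in 18, Mfap5 in 8 and Mfap4 in 6. Read depth is unknown, so the precision of low values such as those of Fbn2 cannot be given.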
